A study of Mus musculus with 4 samples.

Results

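Inhibitory receptors of T cells and genes that accompany them were measured in effector CD4 cells of the central nervous system (CNS) and of draining lymph nodes (dLN) at the onset of experimental autoimmune encephalomyelitis (EAE). The 9 genes were chosen by name out of 23990 gene symbols: the receptor genes Pdcd1, Ctla4, Lag3, Havcr2, Tigit and Cd160, the transcription factor gene Tox, the ectoenzyme gene Entpd1 and the ligand gene Cd274. Each gene is the sum of the FPKM (fragment number per kilobase of transcript after scaling to library size) of its RefSeq transcripts. All 9 were above the minimum for testing, a mean of at least 1 FPKM in at least one tissue, which 10634 genes passed. Entpd1 passed only through its CNS libraries.

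Inhibitory receptors are membrane proteins that dampen signalling from the T-cell receptor and from CD28 after they meet ligands on neighbouring cells. They are induced when T cells are activated and stay high on T cells that meet antigen for a long time, the state known as exhaustion, which depends on the nuclear protein TOX. Regulatory and follicular helper CD4 cells also carry several of them, and in EAE several of these receptors are known to restrain disease.

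Libraries were made from wild type C57BL/6 mice (C57BL/6J in the Methods). EAE, a mouse model of multiple sclerosis, was induced with a peptide of myelin oligodendrocyte glycoprotein (MOG) in complete Freund's adjuvant followed by pertussis toxin. CD44+CD4 cells were sorted at disease onset from spinal cords (the CNS libraries) and from pooled dLN, with 2 libraries per tissue. According to the Methods, sorting was followed by stimulation with PMA and ionomycin, which mimic signals of the T-cell receptor, whereas the sample labels describe fresh sorting and name no stimulation. No age of the mice, no unimmunized control and no separate animals behind the 2 libraries were given, so p-values measure only the spread between these samples. In bulk RNA, fewer cells of a type and less RNA per cell cannot be told apart.

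The spacing of the lowest FPKM values put the depth of the libraries between 18.5 M and 21.9 M fragments, and between 49.5 and 11050 fragments lay behind a value of the 9 genes. The T-cell markers Cd3d, Cd3e, Cd3g and Cd4 were present in all 4 libraries, and Cd4 was at 502 and 531 FPKM in CNS and at 82.0 and 66.7 FPKM in dLN. Y-linked genes were read in CNS and listed at 0 in dLN. The sex-linked transcript Xist went the other way, at 0 and 0.0026 FPKM in CNS and 26.6 and 22.3 FPKM in dLN. Tissue, table and the sex of the mice therefore cannot be told apart. CNS replicate 2 stood apart from CNS replicate 1 in 20 markers of myeloid cells, which summed to 525 FPKM and 68.5 FPKM in these libraries and to 9.07 and 6.70 FPKM in dLN, where 11 of the 20 were at 0 in both libraries. Of the 10634 genes tested with limma, 74.9% were called at an adjusted p under 0.05, with 37.8% higher and 37.2% lower in CNS. When the libraries were instead set to the same level of the CD3 genes Cd3d, Cd3e and Cd3g, 773 genes were higher and 8810 lower, and the median log2 ratio shifted by -1.86.

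In CNS effector CD4 cells, 7 of the 9 genes were lower than in dLN, 1 was higher and 1 was not called. The receptors Pdcd1, Ctla4, Havcr2, Tigit and Cd160 fell, as did Tox and Cd274, by 1.33-fold for Ctla4 up to 15.4-fold for Cd160. Entpd1 rose 23.9-fold, and Lag3 differed more between the CNS libraries than between the tissues. The share called, 8 of 9, stood beside 74.9% of all genes tested, and the 7 lower genes beside 37.2%. Entpd1 is in that count only because its CNS level passed the minimum for testing, which fixed its direction there. It was also called with no minimum applied (limma adjusted p = 0.00126). In 8 of the 9 genes the libraries of the tissues did not overlap, which 89.4% of all tested genes also showed. Without CNS replicate 2, the library with the high myeloid markers, 7 genes were again lower and 1 higher, with the lone CNS library assumed to vary like the dLN pair. The median log2 ratio, CNS over dLN, was -1.23 over the 9 genes and 0.05 over all genes tested.

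**Figure D1:**
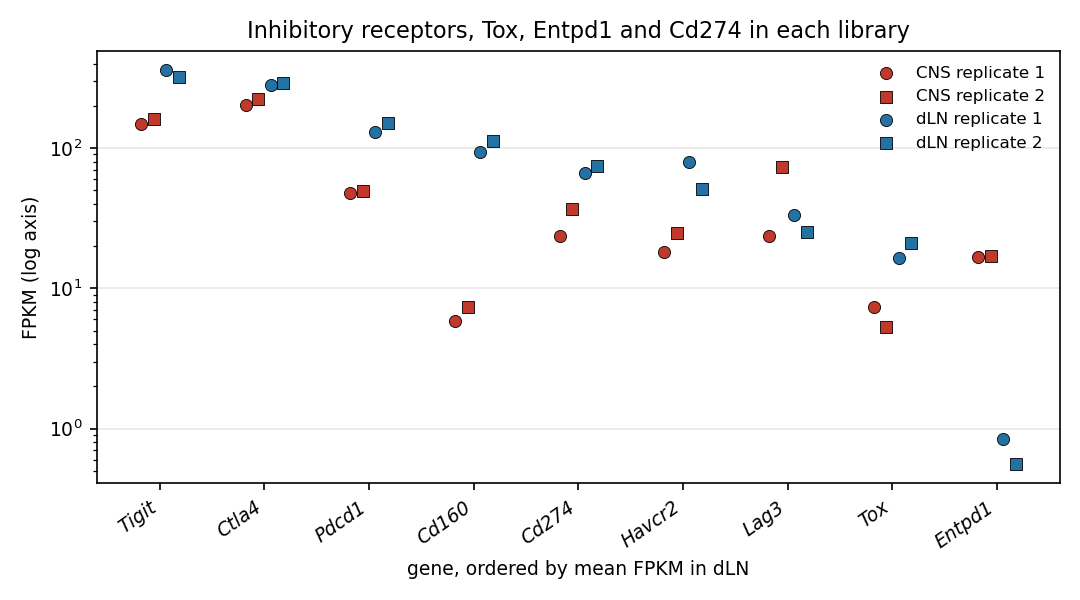
FPKM of the 9 genes (log axis) in each of the 4 libraries, with CNS in red and dLN in blue, circles for replicate 1 and squares for replicate 2. Both CNS points lie below both dLN points for 7 genes, above them for Entpd1, and on both sides of them for Lag3.

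Start sequences are shown for the gene that rose (Entpd1), the gene with the largest fall (Cd160), the PD-1 gene Pdcd1, and Havcr2, the only one whose window held an AP-1 motif. RefSeq promoters of build GRCm38.p6 were found for 7 of the 9 genes, and Lag3 and Tox were not among them. Each window below holds the 250 bases before a start, 5′ to 3′ on the strand of the gene. Capitals mark matches on either strand to 3 short motifs: GGAAA, the core bound by NFAT, the factor that ionomycin activates, TGANTCA, bound by AP-1, which PMA activates, and TGTGGT, bound by RUNX factors.
Pdcd1, chr1:94052554-94052803, minus strand: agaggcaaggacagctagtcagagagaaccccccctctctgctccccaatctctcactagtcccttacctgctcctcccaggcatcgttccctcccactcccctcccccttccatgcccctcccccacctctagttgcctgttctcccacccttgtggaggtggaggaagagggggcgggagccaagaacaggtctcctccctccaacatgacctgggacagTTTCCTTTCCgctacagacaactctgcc
Havcr2, chr11:46454681-46454930, plus strand: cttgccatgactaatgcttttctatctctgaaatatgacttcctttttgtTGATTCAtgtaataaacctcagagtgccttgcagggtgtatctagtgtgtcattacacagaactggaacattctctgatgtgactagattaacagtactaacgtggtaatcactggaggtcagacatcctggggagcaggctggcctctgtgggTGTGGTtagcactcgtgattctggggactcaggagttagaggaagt
Cd160, chr3:96814522-96814771, minus strand: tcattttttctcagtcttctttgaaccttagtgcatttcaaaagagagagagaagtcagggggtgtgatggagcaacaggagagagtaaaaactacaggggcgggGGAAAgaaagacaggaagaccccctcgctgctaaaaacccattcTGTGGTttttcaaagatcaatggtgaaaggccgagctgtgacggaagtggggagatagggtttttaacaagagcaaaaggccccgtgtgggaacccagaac
Entpd1, chr19:40659520-40659769, plus strand: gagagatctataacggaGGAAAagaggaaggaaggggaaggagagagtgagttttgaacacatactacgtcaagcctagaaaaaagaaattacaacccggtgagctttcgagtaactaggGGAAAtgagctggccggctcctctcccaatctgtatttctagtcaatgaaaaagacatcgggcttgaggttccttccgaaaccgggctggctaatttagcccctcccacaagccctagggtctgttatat
Pdcd1 held 2 matches to GGAAA, side by side and both on the opposite strand, and none to the other motifs. Havcr2 held 1 match to TGANTCA and 1 to TGTGGT. The Cd160 window held 1 match to GGAAA and 1 to TGTGGT, and the Entpd1 window held 2 to GGAAA. Both genes have another RefSeq start farther upstream, whose windows overlap annotated exons and are not printed. That of Cd160 held 1 match to TGTGGT and no other, and that of Entpd1 held none. Windows of the same length before all 32851 RefSeq starts held GGAAA in 55.6%, TGANTCA in 6.75% and TGTGGT in 14.0%. A match describes letters and not binding, and GGAAA stood beside Pdcd1 and Cd160, which fell, as well as Entpd1, which rose.

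Pdcd1 encodes PD-1, which recruits phosphatases to the T-cell receptor and CD28. It lies on chromosome 1 of mm10 from 94038305 to 94052553 on the minus strand (Entrez gene 18566). Its FPKM was 47.7 and 49.7 in the CNS libraries and 130 and 151 in the dLN libraries. Both dLN libraries were higher than both CNS libraries, and the libraries of each tissue were close together. Mean FPKM was 48.7 ± 1.43 (SD, n = 2) for CNS against 141 ± 14.5 (SD, n = 2) for dLN, 2.89-fold lower in CNS. The log2 ratio of FPKM + 1 was -1.51 (standard error 0.10, 95% confidence interval -1.77 to -1.24), with a limma adjusted p of 0.00024.

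Cd160 encodes a receptor of the immunoglobulin family that binds HVEM, the product of Tnfrsf14, which also binds the inhibitory receptor BTLA. It spans chromosome 3 from 96798763 to 96829351 on the minus strand (Entrez gene 54215). The gene was at 5.90 and 7.42 FPKM in CNS and at 93.0 and 113 FPKM in dLN, the largest fall among the 9 genes. No CNS library came near a dLN library. Its log2 ratio was -3.76 (standard error 0.15), with a limma adjusted p of 9.09e-05.

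The files list 3 transcripts of Cd160. The one that begins at 96814521, just after the Cd160 window printed above, held 93.2% and 92.3% of the gene's FPKM in CNS and 97.0% in each dLN library. Nearly all the rest was in a transcript from the outer start at 96829351, with 6.82% and 7.67% in CNS and 2.991% and 3.003% in dLN. The share of the outer start was thus higher in both CNS libraries, although its FPKM fell as well, from 2.78 and 3.38 in dLN to 0.402 and 0.570 in CNS. About 19.3 and 27.8 fragments lay behind the 2 CNS values. Exons of Cd160 overlap the gene Pdzk1 on the opposite strand by 68 bases in the GENCODE M21 annotation. Pdzk1 was at 0.969 and 1.71 FPKM in CNS and at 4.74 and 3.56 FPKM in dLN, and whether fragments were counted by strand is not given in the sources used here.

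Tigit encodes a receptor that competes with the activating receptor CD226 and with CD96 for the ligand CD155, the product of Pvr. The gene is on chromosome 16 from 43648861 to 43664184 on the minus strand (Entrez gene 100043314). Tigit was at 148 and 160 FPKM in CNS and at 358 and 319 FPKM in dLN, so the dLN libraries were the higher pair without overlap. The means were 154 ± 8.81 FPKM (SD, n = 2) and 338 ± 27.3 FPKM (SD, n = 2), a 2.20-fold difference. Its log2 ratio was -1.13 (standard error 0.09), with a limma adjusted p of 0.00043. In dLN it was the most abundant of the 9 genes.

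Ctla4 encodes CTLA-4, which takes the ligands CD80 and CD86 away from CD28. It lies on chromosome 1 from 60909025 to 60915832 on the plus strand (Entrez gene 12477). Its FPKM was 204 and 224 in CNS and 282 and 289 in dLN. The tissues did not overlap, but the change was the smallest among the genes called. Mean FPKM was 214 ± 14.2 (SD, n = 2) for CNS against 285 ± 5.13 (SD, n = 2) for dLN, with a log2 ratio of -0.41 (standard error 0.08) and a limma adjusted p of 0.0077. Without dLN replicate 2 the log2 ratio was -0.39 and Ctla4 was no longer called. It was still called without dLN replicate 1, at -0.43.

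The files list a second Ctla4 transcript that lacks exon 3. That exon, 110 bases of coding sequence at chr1:60913219-60913328 on the plus strand, encodes the membrane-spanning part, and without it the protein is known to be secreted. It is shown here, in lower case as read from GENCODE M21, because it is all that separates the transcripts.
Ctla4 exon 3: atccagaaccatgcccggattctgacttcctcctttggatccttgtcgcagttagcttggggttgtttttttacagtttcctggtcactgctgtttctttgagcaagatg
The transcript without it held 0.737% and 0.915% of the gene's FPKM in CNS and 0.322% and 0.532% in dLN. The shares were higher in both CNS libraries, from an estimated 52.3 and 72.0 fragments in CNS and 27.3 and 55.2 fragments in dLN. In all 4 libraries over 99% of the Ctla4 FPKM was in the transcript with exon 3.

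Havcr2 encodes TIM-3, a receptor of interferon-γ-producing T cells that binds galectin-9. Its position is chromosome 11 from 46454931 to 46481254 on the plus strand (Entrez gene 171285). Its FPKM was 18.1 and 24.8 in CNS and 79.1 and 51.0 in dLN. Both dLN libraries were higher, although they differed from each other more than the CNS pair did in FPKM. The log2 ratio was -1.54 (standard error 0.26, 95% confidence interval -2.21 to -0.87), with a limma adjusted p of 0.00415. Without CNS replicate 1 it was -1.32, with an adjusted p of 0.0532. TIM-3 is also found on myeloid cells, whose markers were higher in CNS replicate 2, where Havcr2 was 1.37 times its level in CNS replicate 1. The part of such cells in the Havcr2 values was not tested.

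Lag3 encodes a receptor for MHC class II that is related to CD4 in structure and adjacent to it in the genome. It lies on chromosome 6 from 124904359 to 124911705 on the minus strand (Entrez gene 16768). The gene was at 23.6 FPKM in CNS replicate 1, 73.2 FPKM in CNS replicate 2, 33.1 FPKM in dLN replicate 1 and 25.03 FPKM in dLN replicate 2. One CNS library was the highest of the 4 and the other the lowest, so the tissues overlapped. The log2 ratio was 0.52 (standard error 0.54, 95% confidence interval -0.87 to 1.91), with a limma adjusted p of 0.412. It was 1.32 without CNS replicate 1 (adjusted p = 0.0237) and -0.28 without CNS replicate 2 (adjusted p = 0.34), and -1.60 with the libraries set to the same CD3 level (adjusted p = 0.00461). The interval covers a fall and a rise alike, and these libraries do not show that the tissues were alike in Lag3.

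The 3.10-fold difference of Lag3 between the CNS libraries was the widest among the 9 genes. As CNS replicate 2 over replicate 1, Cd274 was at 1.54, Havcr2 at 1.37 and Entpd1 at 1.01. Tox, at 0.721, was the only one of the 9 higher in CNS replicate 1. Of the 20 myeloid markers, 18 were higher in CNS replicate 2, with a median difference of 1.66 on the log2 scale. Of 20 genes induced by PMA and ionomycin in T cells, 18 were also higher there, with a median difference of 0.56, against 0.01 over 11 T-cell markers. The 8 dendritic-cell markers summed to 9.88 and 20.7 FPKM in the CNS libraries and 14.0 and 5.03 FPKM in dLN. Batf3 alone was at 10.8 FPKM in dLN replicate 1, and 4 of the 8 were at 0 in both dLN libraries. Markers of B cells summed to at most 3.07 FPKM in any library. The part of these in the Lag3 values was not tested.

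**Figure D2:**
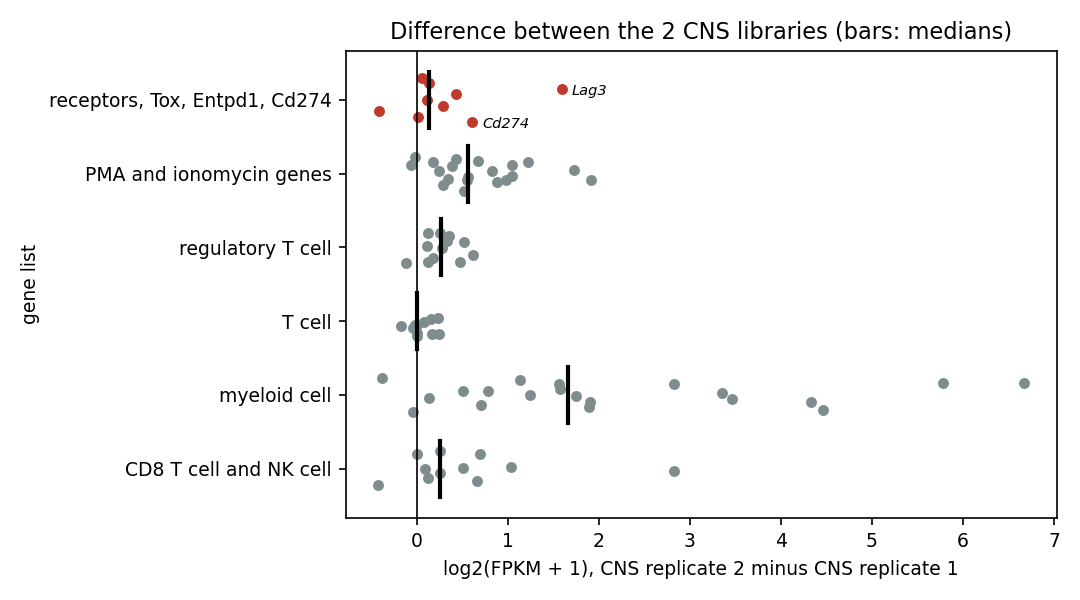
Difference in log2(FPKM + 1) between CNS replicate 2 and CNS replicate 1 for the genes of 6 lists, 1 point per gene, with a bar at each median. Lag3 lies at 1.59 and Cd274 at 0.60, the medians are 1.66 for myeloid markers and 0.56 for genes responsive to PMA and ionomycin, and the T-cell markers lie close to 0.

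Tox encodes the DNA-binding protein TOX, needed for the exhausted state of T cells. It spans chromosome 4 from 6687386 to 6990723 on the minus strand (Entrez gene 252838). Tox was at 7.31 and 5.27 FPKM in CNS and at 16.5 and 21.1 FPKM in dLN, with both dLN libraries above both CNS libraries. The log2 ratio was -1.45 (standard error 0.19), 2.99-fold lower in CNS by the means, with a limma adjusted p of 0.0018. An antisense transcript, Gm11802, overlaps Tox by 520 exon bases in the annotation.

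Entpd1 encodes CD39, an ectoenzyme that breaks down extracellular ATP and ADP to AMP and marks exhausted and regulatory T cells. On chromosome 19 it runs from 40659794 to 40741602 on the plus strand (Entrez gene 12495). Its FPKM was 16.8 and 16.9 in CNS and 0.847 and 0.564 in dLN. The CNS libraries were nearly equal and both far above the dLN libraries, where an estimated 62.7 and 49.5 fragments were read. By the means, 16.9 ± 0.12 FPKM (SD, n = 2) against 0.71 ± 0.20 FPKM (SD, n = 2), the level was 23.9-fold higher in CNS. The limma adjusted p was 8.95e-05, and 0.00126 with every gene above 0 in any library tested, where the minimum plays no part. The log2 ratio, 3.39 with a standard error of 0.12, is smaller than that fold because 1 was added to each FPKM. Entpd1 was the only one of the 9 genes to rise, and it also rose with the libraries set to the same CD3 level, by 1.84. CD39 is found on myeloid cells too. Entpd1 in CNS replicate 2 was 1.01 times its level in CNS replicate 1, and the summed myeloid markers of these libraries were 525 and 68.5 FPKM. The part of myeloid cells in the Entpd1 values was not tested.

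Cd274 encodes PD-L1, the ligand of PD-1, which T cells themselves induce on activation. It lies on chromosome 19 from 29367438 to 29388094 on the plus strand (Entrez gene 60533). Its FPKM was 23.8 and 36.6 in CNS and 66.9 and 74.7 in dLN, with no overlap. The log2 ratio was -1.23 (standard error 0.22), 2.34-fold lower in CNS by the means, with a limma adjusted p of 0.00494. An antisense transcript, AC119228.1, overlaps Cd274 by 511 exon bases in the annotation.

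**Figure D3:**
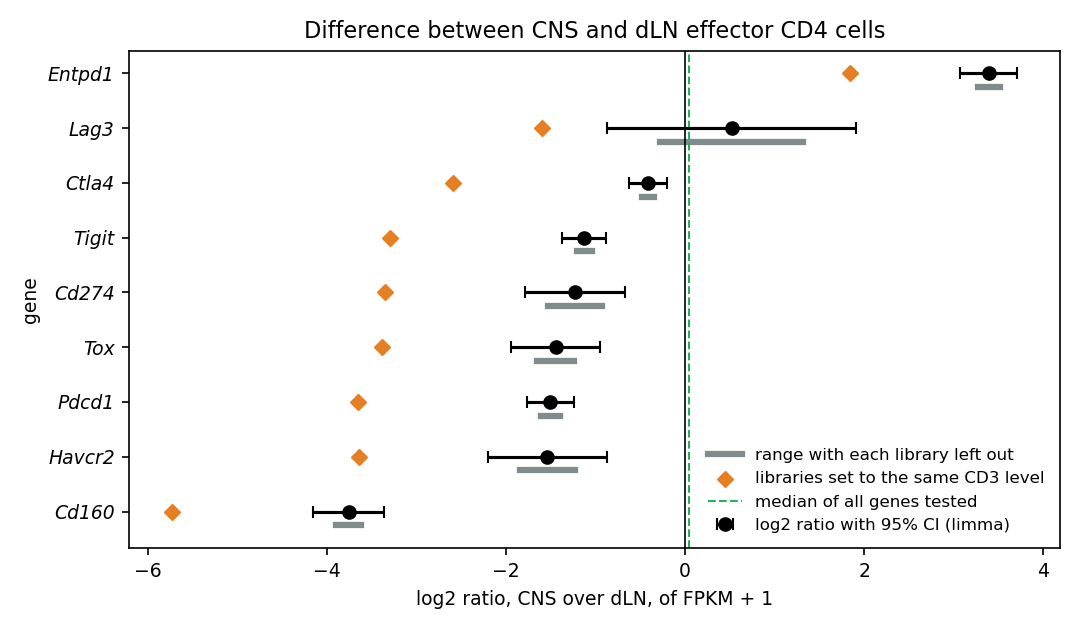
Log2 ratio of FPKM + 1, CNS over dLN, of the 9 genes (black points with 95% confidence intervals from limma), the range of that ratio when each library is left out in turn (grey bars), and its value with the libraries set to the same CD3 level (orange). The interval of Lag3 crosses 0 and its value changes sign to -1.60 at the same CD3 level, Entpd1 stays above 0 in every case, and the other 7 stay below it.

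Since FPKM is scaled per length, the genes can also be ranked by level within a tissue. In CNS the order of mean FPKM was Ctla4, Tigit, Pdcd1, Lag3, Cd274, Havcr2, Entpd1, Cd160 and Tox. Neighbours in that order overlapped between libraries from Pdcd1 to Lag3, Lag3 to Cd274 and Cd274 to Havcr2, and again from Cd160 to Tox. In dLN the order was Tigit, Ctla4, Pdcd1, Cd160, Cd274, Havcr2, Lag3, Tox and Entpd1, and there only Cd274 and Havcr2 overlapped. Cd160 held place 4 in dLN and place 8 in CNS, while Entpd1 went from place 9 to place 7.

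A ratio of genes within a library does not depend on how libraries were scaled. Tigit was 2.08 and 3.36 times the level of Cd226 in CNS and 75.8 and 76.1 times in dLN, a 28.8-fold difference between the geometric means of the tissues. Cd226, which encodes its activating counterpart, went the other way from Tigit, with 71.2 and 47.7 FPKM in CNS and 4.72 and 4.19 FPKM in dLN. Tigit was 1.17 and 1.55 times the level of Cd96 in CNS and 30.8 and 26.7 times in dLN.

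Ctla4 was 2.08 and 2.41 times the level of Cd28 in CNS and 6.24 and 6.78 times in dLN. Beside Icos, the inducible relative of Cd28, Ctla4 was at 1.20 and 1.33 in CNS and at 1.01 and 1.17 in dLN. So the ratio of Ctla4 to Cd28 was lower in CNS without overlap, and that to Icos was slightly higher there. The ratio of Tox to Tcf7, which encodes TCF-1, a factor of memory and stem-like T cells, was 0.0632 and 0.0432 in CNS and 0.734 and 1.01 in dLN. Lag3 was 0.0470 and 0.138 times the level of Cd4 in CNS and 0.404 and 0.375 times in dLN, lower in both CNS libraries although Lag3 itself overlapped.

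Entpd1 was 0.545 and 0.541 times the level of Nt5e, which encodes CD73 and turns AMP into adenosine, in CNS and 0.128 and 0.105 times in dLN. Cd274 was 3.996 and 5.62 times the level of Pdcd1lg2, the gene of the other PD-1 ligand, in CNS and 3.40 and 3.77 times in dLN. The ratios of Pdcd1 to Cd274 and of Tox to its relative Tox2 overlapped between the tissues. They were 2.01 and 1.36 in CNS against 1.95 and 2.02 in dLN for Pdcd1 to Cd274, and 2.99 and 1.46 against 1.89 and 2.79 for Tox to Tox2.

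**Figure D4:**
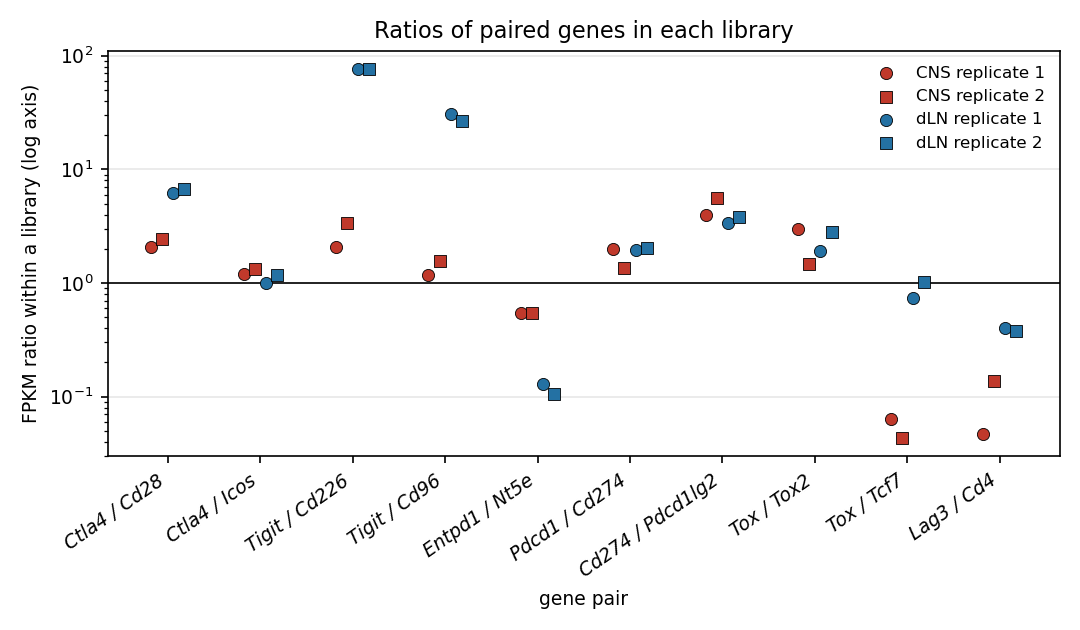
FPKM ratio of 10 gene pairs in each library (log axis, with a line at 1), CNS in red and dLN in blue. Tigit to Cd226 is at 2.08 and 3.36 in CNS and 75.8 and 76.1 in dLN, Tox to Tcf7 is lower and Entpd1 to Nt5e higher in CNS, and Pdcd1 to Cd274 and Tox to Tox2 overlap.

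Other genes of these pathways were read from the same fit. Counts at the same CD3 level are given beside each, since that setting moves the direction of many genes. Over all 10634 genes tested, 37.8% rose and 37.2% fell, and at the same CD3 level 773 rose and 8810 fell. Of 12 other co-inhibitory receptors tested, 9 rose and 3 fell in CNS and the median log2 ratio was 1.60, and at the same CD3 level 4 rose and 6 fell. Cd96 was at 126 and 104 FPKM in CNS and 11.6 and 11.97 FPKM in dLN. Lair1, a collagen receptor, rose by 2.99 on the log2 scale, whereas Btla fell by 3.46 and Vsir, which encodes VISTA and is listed as 4632428N05Rik, fell by 1.42. Lair1 had a mean of 0.04 FPKM in dLN and entered the test through CNS alone, which fixed its direction. Genes under 1 FPKM in one tissue, with their direction fixed in this way, are among the counts of several lists. Btla, which shares its ligand HVEM with Cd160, was at 8.80 and 8.99 FPKM in CNS and 99.4 and 117 FPKM in dLN. The gene of that ligand, Tnfrsf14, did not pass the test (log2 ratio 0.09, limma adjusted p = 0.533).

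Of 10 ligand genes tested, 5 rose and 3 fell, against 3 and 5 at the same CD3 level. Lgals9, which encodes galectin-9, the ligand of TIM-3, was at 112 and 104 FPKM in CNS and 8.94 and 7.48 FPKM in dLN, so it rose by 3.57 on the log2 scale where Havcr2 fell. Icosl rose by 3.73, Cd200 fell by 4.85 and Pdcd1lg2 fell by 1.52. Icosl, at a mean of 0.44 FPKM in dLN, entered the test through CNS alone and was not the only rise here to do so. Pvr, the CD155 gene, was at 8.61 and 8.65 FPKM in CNS and 12.7 and 13.3 FPKM in dLN. Fgl1, which encodes a ligand of LAG-3, was listed at 0 in all 4 libraries.

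Of 12 costimulatory genes, 4 rose and 6 fell, against 1 and 11 at the same CD3 level. Cd226 rose by 3.45 and Tnfrsf18, which encodes GITR, by 1.33, the latter turning to -0.84 at the same CD3 level. Tnfsf8, the gene of CD30 ligand, fell by 6.55 and Cd40lg fell by 2.78. Of 16 signalling partners of the receptors, 11 rose and 3 fell, with a median of 0.88, against 2 and 12 at the same CD3 level. Lax1, an adaptor that limits receptor signalling, rose by 2.87 and Inpp5d, the SHIP-1 phosphatase gene, rose by 2.50, whereas Ptpn22 fell by 1.30 and the kinase gene Fyn fell by 1.19. Ptpn11, which encodes SHP-2, the phosphatase bound by PD-1, fell by 0.33. Ptpn6, another phosphatase gene of that list, went the other way and rose by 1.72 (-0.38 at the same CD3 level).

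Of 21 transcription factors of exhausted and memory T cells, 10 rose and 11 fell, with a median of -0.76, and at the same CD3 level 2 rose and 16 fell. Nr4a3 fell by 3.67 and Nr4a2 by 3.37, both immediate early genes of T-cell receptor signalling that act beside TOX. Tox2 fell by 1.20. Bhlhe40 rose by 2.82 and Tcf7 by 2.40. Of 8 genes of extracellular nucleotide and adenosine metabolism, 5 rose and 3 fell, with a median of 1.07, against 3 and 4 at the same CD3 level. P2rx7, which encodes an ATP-gated channel, rose by 4.80, Dpp4, which encodes CD26, by 2.95 and Nt5e by 2.20, beside Entpd1. The adenosine transporter gene Slc29a1 fell by 1.88 and P2rx4 by 0.90. P2rx7, at a mean of 0.54 FPKM in dLN, entered the test through CNS alone and was not the only rise of its list to do so.

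**Figure D5:**
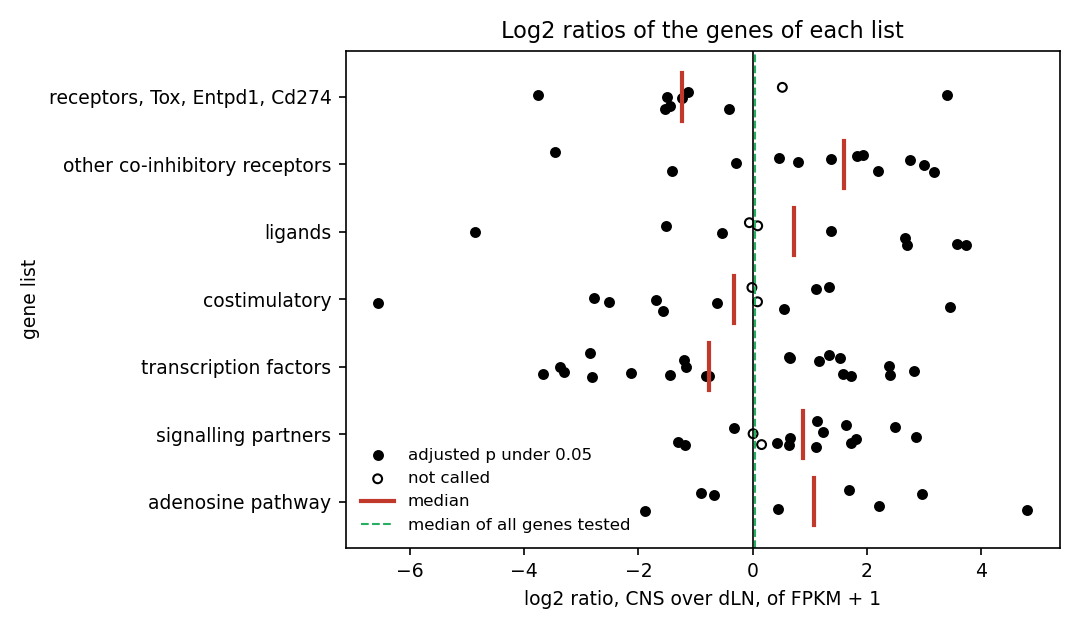
Log2 ratio of FPKM + 1, CNS over dLN, of each gene of 7 lists, filled where the limma adjusted p was under 0.05, with a red bar at each list's median and a dashed line at the median of all genes tested. The 9 genes have a median of -1.23, the other co-inhibitory receptors 1.60, and the adenosine pathway, without Entpd1, 1.07, and at the same CD3 level the medians of the latter 2 lists turn to -0.40 and -0.48.

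Markers of cells and states known to carry these receptors were read from the same fit. Beside them, 37.8% of all 10634 genes tested rose and 37.2% fell, with 773 rising and 8810 falling at the same CD3 level. Of 12 regulatory T-cell markers, 7 fell and 2 rose, with a median of -1.19 (12 fell at the same CD3 level). Foxp3 was at 24.7 and 35.9 FPKM in CNS and 81.6 and 78.2 FPKM in dLN, Il2ra fell by 2.65 and Ikzf2 by 2.85. Tnfrsf18 and Itgae of the same list rose by 1.33 and 0.51, and at the same CD3 level they were at -0.84 and -1.54. Of 10 follicular helper markers, 8 fell and 2 rose, with a median of -1.21 (8 fell and 1 rose at the same CD3 level). Of 20 genes induced by PMA and ionomycin, 13 fell and 2 rose, with a median of -2.07 (19 fell at the same CD3 level), and their summed FPKM was 2009 and 2971 in CNS and 12198 and 13735 in dLN. Several genes stand in more than 1 of these lists. In these 3 lists some falls came from genes under 1 FPKM in CNS, which entered the test through dLN alone. Markers of CD8 and NK lymphocytes, which can also carry Cd160, Havcr2 and Lag3, summed to 67.0 and 74.0 FPKM in CNS and 5.34 and 4.33 FPKM in dLN. Of the 6 tested, 4 rose and none fell (4 rose and 1 fell at the same CD3 level). The 4 that rose had means under 1 FPKM in dLN, so they entered the test through CNS alone and could only rise. Klrd1 was at 48.8 and 36.2 FPKM in CNS and 0.875 and 0.531 FPKM in dLN and rose by 4.67 on the log2 scale, and Klrk1 rose by 2.86. Cd8a was at most 0.834 FPKM and Klra1 was listed at 0 in all 4 libraries, whereas Cd8b1 was at 3.66 and 4.56 FPKM in CNS and 3.38 FPKM in each dLN library. Fcgr3, counted among the myeloid markers too, was at 1.35 and 15.6 FPKM in CNS and 0.309 and 0.116 FPKM in dLN. The part of any of these in the values of the 9 genes was not tested.

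The genes beside the receptors on the chromosome did not all move with them. Ctla4 lies between Cd28, 135.7 kb away, which rose by 1.10 (-1.05 at the same CD3 level), and Icos, 62.1 kb away, which fell by 0.63. Lag3 lies between Cd4, 16.1 kb away, which rose by 2.79, and Ptms, 1.97 kb away. Ptms had 49.6 and 103 FPKM in the CNS pair and 34.7 and 34.1 FPKM in dLN, so it shared with Lag3 the higher level in CNS replicate 2. Cd274 lies between Plgrkt, 5.57 kb away, which rose by 0.82 (-1.29 at the same CD3 level), and Pdcd1lg2, 22.8 kb away, which fell by 1.52. Med7, 12.2 kb from Havcr2, fell by 1.5. Tctn3 and Ccnj, on the sides of Entpd1, had log2 ratios of 0.03 and -1.13. Rnf115 beside Cd160 and Nsmaf beside Tox rose by 0.44 and 1.04 while their neighbours fell, and at the same CD3 level they were at -1.69 and -1.05.

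The genes with the most similar values over the 4 libraries were found by the Euclidean distance between their values of log2(FPKM + 1). For Entpd1 these were Acsf2 at a distance of 0.30 and Susd2 at 0.32, and for Cd160 Chchd4 at 0.20 and Slc19a1 at 0.23. For Lag3 the nearest, Cdkn1a at 0.61 and Xcl1 at 0.62, were farther away than for any of the other 8 genes. Both were higher in CNS replicate 2, which follows from their choice by similar values. Imp3 and Impdh2 lay close to Pdcd1, Usmg5 and Polr1d to Ctla4, Hspe1 to Tigit, Creld2 and Ccr4 to Havcr2, Nup43 and Atl2 to Tox, and Rpl30 and Fosl2 to Cd274, at distances from 0.18 to 0.44. With 4 libraries in 2 tissues, many genes lie close together by this measure.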

How the data were processed

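RNA was sequenced from 4 libraries of sorted effector CD4 cells, 2 from CNS and 2 from dLN. Per the study's Methods, reads were trimmed and mapped. The authors deposited FPKM values for 33819 RefSeq transcripts (mm10), 1 table for each tissue. The aligner and the program that computed FPKM are not given in the sources used here. The CNS header holds both library names in a single cell, and its columns were assigned in that order.

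From the deposited FPKM, values were summed by gene symbol, and 565 transcripts lacking a symbol, which held 0.142% to 0.446% of each library's FPKM, were dropped. The 10634 genes whose mean reached 1 FPKM in either tissue, a minimum taken from the Methods, entered a limma 3.58.1 fit (lmFit, then eBayes with a variance trend, R 4.3.3) of log2(FPKM + 1) on tissue. P-values were adjusted over all of them by Benjamini-Hochberg, with a threshold of 0.05. Log2 ratios on this scale understate the change of low genes. With 2 libraries in each tissue, the smallest two-sided p of an exact permutation is 0.333. The fit and the depth estimate were also run on simulated data. In the simulation of the fit all genes had the same spread and few were changed, unlike here, so it does not test these calls. Low FPKM values were whole multiples of 1 fragment (tolerance 0.05) in 89.6% to 92.8% of cases, where chance gives 10%. Fragment numbers are approximate.

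The genes were taken by name. The members, gene lists, pairs and tests were chosen with earlier results of these data known. Named were all 9 genes, up to 2 rises and 2 falls per list by size, the genes of fixed pairs, the nearest 2 genes by pattern and the neighbours on the chromosome. A gene that this rule names is not reported here. Ptpn6, Ptpn11, Pvr, Tnfrsf14, Fgl1, Foxp3, Cd8a, Cd8b1, Fcgr3, Klra1 and Batf3 were named after their values were seen. The main fit did not pair the tissues by replicate number. Replicate differences in CNS and dLN correlated at 0.09 across genes, which cannot show whether the numbers pair. Alternatives covered the pseudocount, filters, scalings, the highest transcript, a minimum log2 ratio, eBayes with no trend, the replicate block and each library left out. Promoters came from RefSeq and exons from GENCODE M21. Python 3.11.15, numpy 2.4.6, pandas 2.3.3 and matplotlib 3.10.9 were used.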

Additional observations from a re-analysis of the deposited data

How the results depend on the processing

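Of 153 log2 ratios of the 9 genes under the alternatives, 147 stayed on the same side of 0 and of the threshold. Lag3 reversed to -1.60 at the same CD3 level, and with each library left out it ranged from -0.28 to 1.32. Leaving out libraries moved Havcr2 between -1.85 and -1.23 and Ctla4 between -0.48 and -0.35, each losing its call in 1 case. With a log2 ratio of at least 1 also required, Ctla4 at -0.41 was no longer called and 4168 of 7968 genes were, by construction of the setting. Under the other settings the number of genes called ranged from 6518 with a filter of 5 FPKM to 9583 at the same CD3 level, and the number of the 9 genes called ranged from 7 to 9. The median log2 ratio of all genes shifted by -0.17 with the same sum per library and by 0.12 with the same upper quartile. The replicate block gave 7828 calls over all genes and 8 among the 9 genes, and changed none of the 9 calls. Depth limits Entpd1 in dLN and the minor transcripts of Cd160 and Ctla4 most, with few fragments behind them.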
